A study of Mus musculus with 40 samples.

Results

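The loci of 10 mouse genes that act in mesoderm and heart formation were followed through a screen for enhancer activity. The genes were Eomes, Mixl1, Mesp1, Tbx6, Pdgfra, Foxf1, Hand1, Hand2, Gata4 and Gata6, of 49939 RefSeq genes on the assembled chromosomes. A fragment was assigned to a gene when its centre lay in the gene body or within 25 kb of it, and overlapping fragments were merged into regions. In all, 565 of 458486 listed fragments met this rule. They comprised 416 of 354627 distinct fragments and fell into 78 of 75060 regions.

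The screen used HM-1 mouse embryonic stem cells of the 129/ola strain, whose Hprt locus is not functional. Open-chromatin fragments cut by the Tn5 transposase in cells of 5 stages were cloned in front of the HSP68 minimal promoter and a Venus-YFP gene, and homologous recombination placed 1 such cassette at Hprt while repairing it, so that all cells compared here carried a reporter and had passed the same selection. The stages were embryonic stem cells (ES), FLK1+ hemangioblast cells from embryoid bodies (HB), hemogenic endothelium that was KIT+ TIE2+ CD41- (HE1) or KIT+ TIE2+ CD41+ (HE2), and hematopoietic progenitors that were KIT+ TIE2- CD41+ (HP). Each stage was sorted into a Negative, a Low, a Medium and a High YFP gate in 2 replicates, which gives 40 lists of fragments and 10 sorts, a sort being 1 stage of 1 replicate. The Negative gate had been set on cells that carried the reporter with the minimal promoter alone. The culture was directed towards blood, and a fragment was tested at Hprt, away from its own gene, so the lists say nothing of how strongly the 10 genes themselves were expressed. Positive fragments of a sort are those in its Low, Medium or High list, each counted once.

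In the embryo, mesoderm forms in the primitive streak, where Nodal and Wnt signals switch on Eomes, a T-box factor needed for mesoderm and endoderm, and Mixl1, a homeobox factor of the streak. Mesp1, a basic helix-loop-helix factor, marks the earliest cells bound for the heart, whereas Tbx6, another T-box factor, directs cells towards paraxial mesoderm, and Pdgfra encodes a receptor for platelet-derived growth factor carried by both. Foxf1 is a forkhead factor of the lateral plate. Hand1 and Hand2 are basic helix-loop-helix factors of the heart chambers and lateral mesoderm, and Gata4 and Gata6 are zinc-finger factors of heart and endoderm that bind the letters GATA. The FLK1+ stage of the culture can still give rise to cardiac as well as blood cells, and the later stages are committed towards endothelium and blood.

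The sequences that follow are the 200 bases covered by most fragments in the largest region of each locus other than Gata6, whose sequence is not shown, read from the mm10 assembly on the + strand, since these are the stretches on which the counts below rest. Capitals mark matches, on either strand, to 10 motifs that were searched, none of which contains another. GATA factors were searched by the letters AGATAA, T-box factors by AGGTGTGA, and helix-loop-helix factors by the E-box letters CAGCTG and, separately, by the letters CATCTG. The letters for the TEAD family were GGAATG, those for the AP-1 family were TGACTCA, those for the FOX family were TGTTTAC, those for the SOX family were ACAATGG, those for the SMAD family were CAGACA, and those for the ETS family were GGAAGT.
Eomes, chr9:118489628-118489827, + strand: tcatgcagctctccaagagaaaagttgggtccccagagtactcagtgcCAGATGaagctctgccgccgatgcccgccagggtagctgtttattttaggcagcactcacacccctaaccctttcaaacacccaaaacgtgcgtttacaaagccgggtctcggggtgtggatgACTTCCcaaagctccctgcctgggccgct
Mixl1, chr1:180720411-180720610, + strand: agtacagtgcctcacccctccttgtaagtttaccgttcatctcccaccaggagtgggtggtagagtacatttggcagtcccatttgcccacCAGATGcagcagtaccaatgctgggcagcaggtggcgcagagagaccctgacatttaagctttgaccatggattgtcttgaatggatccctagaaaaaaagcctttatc
Mesp1, chr7:79780653-79780852, + strand: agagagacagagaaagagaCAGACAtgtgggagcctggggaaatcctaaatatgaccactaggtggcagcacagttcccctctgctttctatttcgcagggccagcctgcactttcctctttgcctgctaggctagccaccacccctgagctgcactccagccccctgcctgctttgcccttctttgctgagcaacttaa
Tbx6, chr7:126773504-126773703, + strand: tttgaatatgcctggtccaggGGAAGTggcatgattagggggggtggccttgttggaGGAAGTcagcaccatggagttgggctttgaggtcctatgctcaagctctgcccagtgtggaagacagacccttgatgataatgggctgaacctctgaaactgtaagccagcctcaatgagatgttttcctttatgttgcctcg
Pdgfra, chr5:75210116-75210315, + strand: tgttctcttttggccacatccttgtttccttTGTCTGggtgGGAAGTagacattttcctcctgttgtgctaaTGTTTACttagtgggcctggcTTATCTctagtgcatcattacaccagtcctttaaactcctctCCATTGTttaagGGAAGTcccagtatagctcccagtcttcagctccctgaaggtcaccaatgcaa
Foxf1, chr8:121104149-121104348, + strand: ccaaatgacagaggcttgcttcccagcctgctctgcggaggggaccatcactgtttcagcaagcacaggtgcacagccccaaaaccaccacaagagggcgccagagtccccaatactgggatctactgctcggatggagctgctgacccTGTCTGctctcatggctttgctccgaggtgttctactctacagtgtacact
Hand1, chr11:57820138-57820337, + strand: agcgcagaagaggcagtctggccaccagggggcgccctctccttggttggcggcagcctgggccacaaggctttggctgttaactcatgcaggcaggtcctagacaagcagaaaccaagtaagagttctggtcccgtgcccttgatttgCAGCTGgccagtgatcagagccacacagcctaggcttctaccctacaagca
Hand2, chr8:57340880-57341079, + strand: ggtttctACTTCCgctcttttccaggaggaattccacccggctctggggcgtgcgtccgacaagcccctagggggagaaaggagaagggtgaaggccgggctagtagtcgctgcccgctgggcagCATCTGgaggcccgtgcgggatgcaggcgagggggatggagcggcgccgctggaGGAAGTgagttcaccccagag
Gata4, chr14:63255859-63256058, + strand: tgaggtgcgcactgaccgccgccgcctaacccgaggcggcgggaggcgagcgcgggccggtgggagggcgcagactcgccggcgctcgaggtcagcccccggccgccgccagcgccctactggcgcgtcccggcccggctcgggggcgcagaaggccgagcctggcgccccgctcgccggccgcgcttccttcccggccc
The Pdgfra stretch held 6 matches, to the SMAD, ETS, FOX, GATA and SOX letters, with ETS matched at 2 places. The Hand2 stretch held 3 matches, of which 2 were to ETS and 1 to the E-box CATCTG. The Tbx6 stretch held 2 ETS matches and the Eomes stretch 1 ETS and 1 CATCTG match. No match lay in the Gata4 stretch, whose G and C content was 81.5%. Over 300-base windows centred on the 78 regions, GATA letters were present in 16 (20.5%, 95% Wilson interval 13.0 to 30.8), against 16.3% of windows over all regions on assembled chromosomes. T-box letters were present in 3 of the 78 windows (3.85%), against 1.54% of all. AP-1 letters were present in 2 (2.56%, interval 0.706 to 8.88), against 9.77% of all windows. For the other motifs the shares were 12.8% against 19.7% for CAGCTG, 21.8% against 24.5% for CATCTG, 12.8% against 18.7% for TEAD, 6.41% against 3.95% for FOX, 6.41% against 5.18% for SOX, 30.8% against 29.2% for SMAD and 21.8% against 23.2% for ETS. A match describes letters and is not evidence of a bound factor.

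The lists differed widely in depth. They held 654 to 51146 fragments, and replicate 1 gave 78.8% of all fragments and 75.0% of those at the 10 loci. HE2 High of replicate 2, the smallest list, held 0 fragments at the loci, which allows a share of up to 0.459%. Of the distinct fragments at the loci, 20.0% occurred in over 1 list, against 19.0% of all distinct fragments, and 12.7% occurred in both a Negative and a positive list, against 12.1% of all. Of the 416, 3 occurred in both replicates (0.721%, against 0.956% of all distinct fragments). When distinct fragments with both ends within 5 bp of each other were joined, the 416 became 368. The lists hold no expression values, so the stages could not be checked against their surface markers. Nothing in the sources used here ties a replicate to a separate clone or animal, so the SDs given below measure the spread between these cultures.

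Over the 10 loci, the mean shares of positive and Negative fragments were close, with a wide spread between sorts. The loci received 0.137% ± 0.0371 (SD, n = 10 sorts) of the positive and 0.140% ± 0.0833 of the Negative fragments. The difference, positive minus Negative, was -0.00303 ± 0.0884 percentage points, above 0 in 6 sorts and below it in 4. It ran from -0.151 in HE1 of replicate 2 to 0.103 in HP of replicate 2, so the shares are not shown to be alike. Each stage has 2 sorts. The share of positive fragments was 0.119% ± 0.00460 in ES, 0.150% ± 0.0159 in HB, 0.119% ± 0.0261 in HE1, 0.114% ± 0.00192 in HE2 and 0.185% ± 0.0649 in HP. The HP sorts were the farthest apart, at 0.139% in replicate 1 and 0.230% in replicate 2. By gate, the entries at the loci were 22.3% Negative, 25.0% Low, 31.7% Medium and 21.1% High, and the entries of the whole series were 22.5%, 23.6%, 28.8% and 25.1% in the same order. The plot of counts by sort gives the numbers behind each locus.

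**Figure D1:**
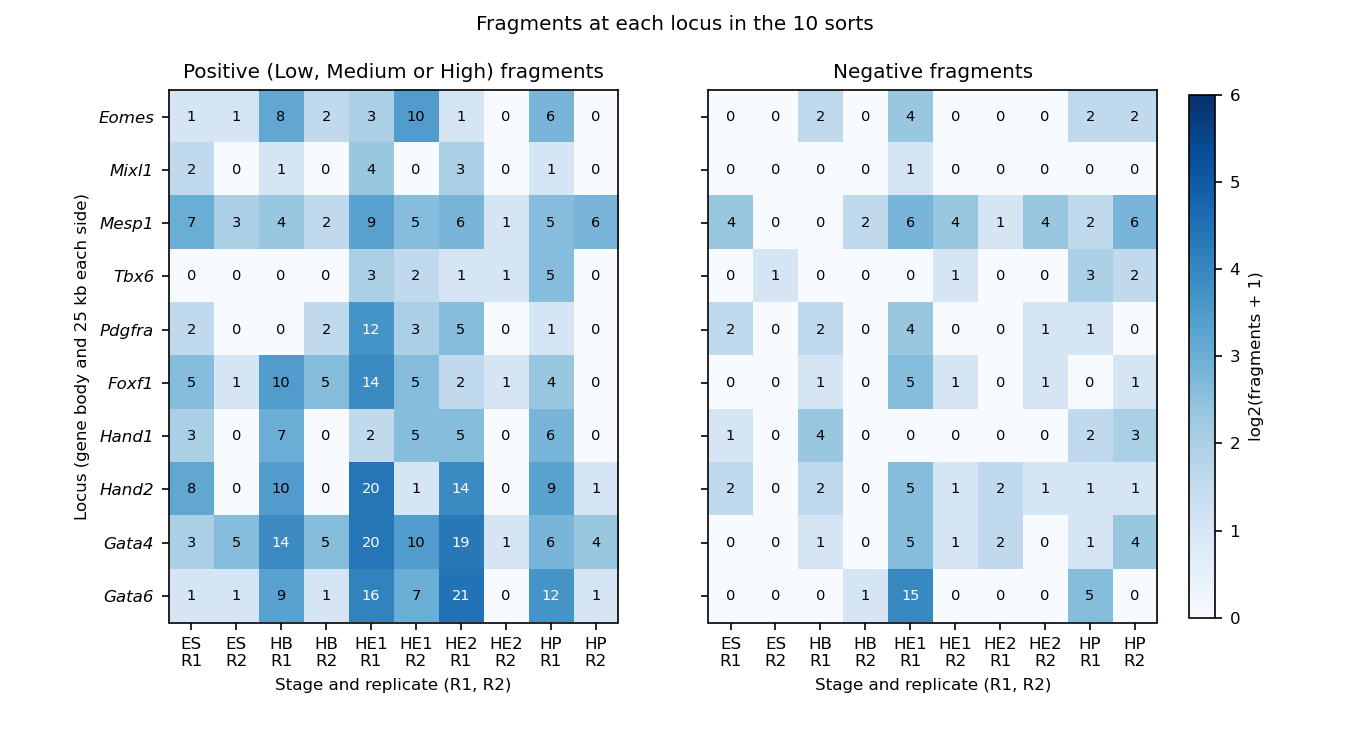
Number of distinct fragments at each locus (rows) in the 10 sorts (columns, 5 stages with replicates R1 and R2), on the left for the positive lists and on the right for the Negative list, with colour on a log2 scale. The highest counts are the 21 positive Gata6 fragments of HE2 replicate 1 and the 20 positive Gata4 and 20 positive Hand2 fragments of HE1 replicate 1.

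None of the 8 loci that could be tested had a positive share that differed from its Negative share past the threshold of the test. A missing call does not show that the shares were alike, since the counts were small. Each sort formed a stratum of a Cochran-Mantel-Haenszel test, and p-values were adjusted by the Benjamini-Hochberg method over all gene loci with at least 20 fragments. Of 14082 loci tested, 5 had more positive fragments (0.0355%) and 9 had fewer (0.0639%), and none of these 14 was a member. Mixl1 with 12 fragments and Tbx6 with 19 were below the minimum and were not tested, and the other 8 had an adjusted p of 1. Among the tested members, 3 had more positive fragments than the strata predict and 5 had fewer, and their median ratio of observed to expected positives was 0.956, against 1.00 over all tested loci. A single member, Gata4, had an unadjusted p below 0.05, that is 12.5% of the 8, against 3.43% of all tested loci. The interval plot of odds ratios sets the members beside each other.

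**Figure D2:**
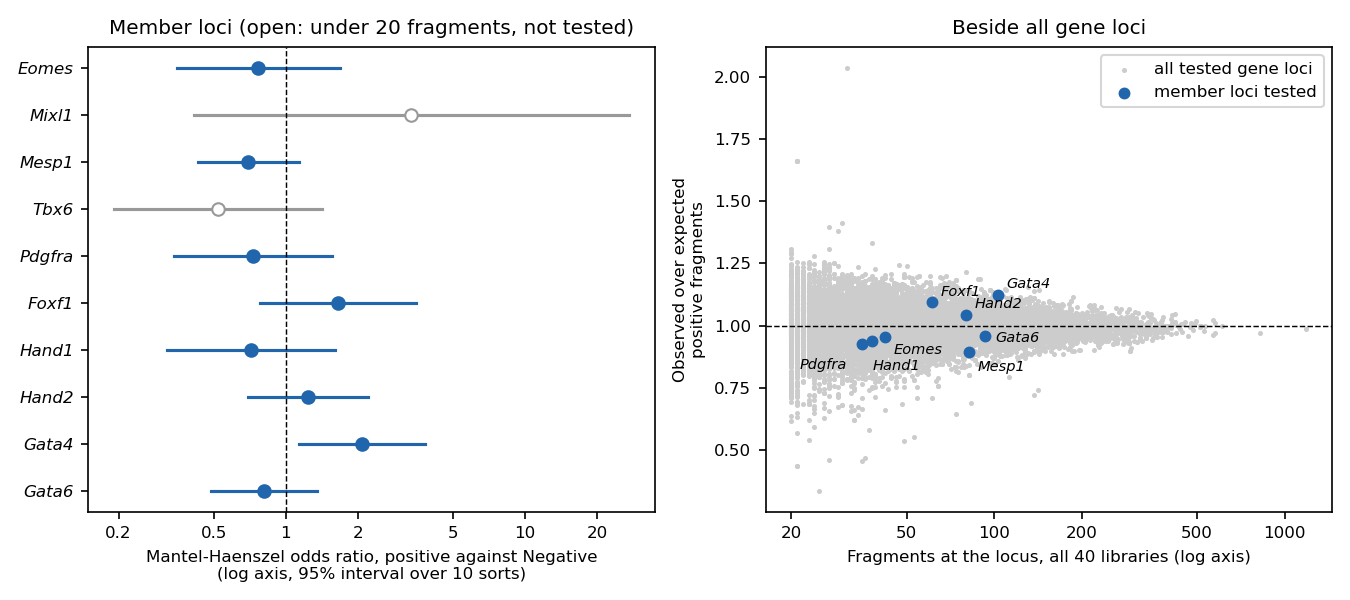
On the left, the Mantel-Haenszel odds ratio of a fragment being positive rather than Negative at each locus, on a log axis. Its 95% interval is computed from fragment counts with the 10 sorts as strata and does not measure the spread between sorts. Open symbols are loci with under 20 fragments. On the right, observed over expected positive fragments against the number of fragments for the 8 tested members (blue) and all 14082 tested gene loci (grey). Only the Gata4 interval, 1.13 to 3.80, leaves out 1.

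Eomes and Mixl1, the streak factors, had few fragments. At Eomes (chr9:118478186-118486132) 42 entries fell into 6 regions. The positive share per 10000 positive fragments of a sort ran from 0 through a median of 0.735 to 2.87, and the Negative share from 0 through a median of 0 to 2.37, so that the ranges overlapped. The odds ratio was 0.766 (95% interval 0.349 to 1.68), and the ratio of observed to expected positives, 0.954, became 1.01 when HE1 of replicate 1 was left out. The largest region, chr9:118489430-118490112, lay 11582 bp downstream of the start site, in an exon of the predicted non-coding gene Gm33460. It held 22 entries, 21 of them from replicate 1. By sort in replicate 1 the positive fragments were 1 in ES, 5 in HB, 3 in HE1, 1 in HE2 and 4 in HP, and the Negative ones were 2 in HB, 4 in HE1 and 1 in HP, with 1 further Negative fragment in HP of replicate 2. Its odds ratio was 0.510 (0.203 to 1.28, adjusted p = 1 by the Cochran-Mantel-Haenszel test). A neighbouring region, chr9:118486348-118486971, 8470 bp from the start, showed another distribution. It held 12 positive fragments and 0 Negative ones, of which 8 came from HE1 of replicate 2, 2 from HB of replicate 2, 1 from HB of replicate 1 and 1 from ES of replicate 2. Of these, 10 were in Low lists, 2 in Medium lists and none in a High list. The positive level was 0.351 per 10000 over all positive fragments, and the Negative count of 0 allows up to 0.290 per 10000. These pooled values ignore the strata, and HE1 of replicate 2 held 34809 positive but only 2773 Negative fragments. With the sorts as strata, the ratio of observed to expected positives was 1.13. With 12 entries it was too small for the test.

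At Mixl1 (chr1:180693043-180697034) all 12 entries came from replicate 1, and the count of 0 among the 64717 positive fragments of replicate 2 allows up to 0.464 per 10000. Of the 12, 10 lay in 1 region, chr1:180720411-180720760, 23551 bp upstream of Mixl1 and 5458 bp upstream of Acbd3, a Golgi protein gene. This region held 9 positive fragments, 2 in ES, 1 in HB, 4 in HE1 and 2 in HE2, and 1 Negative fragment in HE1. High lists held 5 of its 10 entries. All 3 regions of the locus were nearer to the Acbd3 start than to that of Mixl1.

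Mesp1 had the largest part of its entries in Negative lists among the tested members. Its locus (gene body chr7:79792241-79793590) held 82 entries in 12 regions, found in 32 of the 40 lists, and 35.4% of them were Negative, against 22.5% over the series. The positive share ran from 0.877 through a median of 1.54 to 11.5 per 10000, and the Negative share from 0 through a median of 3.11 to 14.7, and the ranges overlapped. The odds ratio was 0.697 (0.430 to 1.13). The region with most entries, chr7:79780274-79781277, 12815 bp downstream of the start in an intron of Wdr93, held 28 entries, all from replicate 1. Its positive fragments were 3 in ES, 2 in HB, 8 in HE1, 4 in HE2 and 3 in HP, beside 2 Negative in ES, 5 in HE1 and 1 in HP, and its odds ratio was 0.762 (0.328 to 1.77, adjusted p = 1 by the Cochran-Mantel-Haenszel test). The replicate 2 entries lay elsewhere. A region 3848 bp downstream of the start, chr7:79789499-79789986, had 16 entries, all from replicate 2, that came from only 5 distinct fragments.

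A Mesp1 fragment recurred more than any other at the 10 loci. It spanned chr7:79789503-79789751, 249 bp, and appeared in 12 lists of replicate 2. These were 4 Negative and 8 positive lists and covered all 5 stages. In HB it was present in the Negative, Low, Medium and High lists alike. A fragment of 219 bp, chr7:79797272-79797490, in a region 3907 bp upstream of the start, was in 7 lists of replicate 2, of which 3 were Negative. That region held 10 entries of 3 distinct fragments, with HB positive in both replicates by 1 fragment each. Another one, chr7:79798536-79798646, was in 6 lists of replicate 2, 4 Negative and 2 positive. The same insert was thus found on both sides of the YFP gate at this locus. Over all 10 loci, 43 distinct fragments lay in both the Negative and a positive list of a single sort (10.3%, against 9.72% of all distinct fragments). Mesp2, the neighbouring paralog, shared 51 of its 55 entries with the Mesp1 window (92.7% of its own and 62.2% of those of Mesp1), so the values of the pair are not separate.

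Tbx6 and Pdgfra, genes of paraxial mesoderm, had low counts as well. Tbx6 (chr7:126781483-126785548) had 19 entries, 12 positive and 7 Negative fragments, and an odds ratio of 0.522 (0.192 to 1.42). No positive fragment was found in ES or HB, where the count of 0 allows up to 0.817 and 0.586 per 10000. The positive fragments were 3 in HE1, 1 in HE2 and 5 in HP of replicate 1, and 2 in HE1 and 1 in HE2 of replicate 2. Its largest region, chr7:126773125-126773733, lay in an intron of Gdpd3, 8054 bp upstream of Tbx6 and nearer to the Ypel3 start. The 10 entries of this region, all of replicate 1, were 3 positive fragments in HE1, 4 positive in HP and 3 Negative in HP.

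Pdgfra (chr5:75151322-75198206) had 35 entries. The positive share ran from 0 through a median of 0.487 to 1.64 per 10000 and the Negative share from 0 through a median of 0.483 to 3.67, with an odds ratio of 0.730 (0.343 to 1.56). Among its entries 22 lay in 1 region beyond the 3′ end of the gene, chr5:75210020-75210567, 58042 bp from the start. All came from replicate 1. HE1 gave 11 of its 16 positive and 4 of its 6 Negative fragments. ES gave 1 positive and 1 Negative, HE2 gave 3 positive, and HP gave 1 of each, and the odds ratio of the region was 0.899 (0.348 to 2.32, adjusted p = 1 by the Cochran-Mantel-Haenszel test). The region with 6 motif matches in its centre was thus present on both sides of the gate in about the expected proportion, 0.973 observed over expected.

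Foxf1, the lateral plate factor, had 2 regions that were positive at 3 stages in both replicates. In replicate 2, 1 fragment in each region reached all 3 stages. The locus (chr8:121084386-121088154) had 61 entries in 7 regions, with 47 positive and 9 Negative fragments. The positive share ran from 0 through a median of 1.40 to 4.10 per 10000, the highest in HB of replicate 2, and the Negative share from 0 through a median of 0.334 to 3.67. The odds ratio was 1.66 (0.783 to 3.51), and the observed over expected ratio of 1.09 fell to 0.991 with a window of 10 kb. Its largest region, chr8:121104123-121105145, lay 20248 bp downstream, in an intron of Mthfsd. It was positive in both replicates in HB with 5 and 2 fragments, in HE1 with 6 and 2 and in HE2 with 2 and 1. ES and HP were positive in replicate 1, with 3 and 2 fragments. The Negative fragments were 2 in HE1 of replicate 1, and the odds ratio was 3.51 (0.802 to 15.4, unadjusted p = 0.132, adjusted p = 1 by the Cochran-Mantel-Haenszel test). In this region 11 of 28 entries were High. A single 438 bp fragment, chr8:121104708-121105145, made up 4 of its 6 entries of replicate 2. The next region, chr8:121092585-121093100, 8456 bp downstream in the 3′ UTR of Mthfsd, was positive in both replicates in ES (2 and 1), HB (3 and 1) and HE1 (5 and 1), with 15 positive fragments in all and 2 Negative ones. All 4 of its replicate 2 entries were a single 113 bp fragment, chr8:121092842-121092954. In contrast, a region 6593 bp downstream, chr8:121090711-121091247, held 4 positive and 5 Negative fragments. The Foxf1 window shared 47 entries with that of Foxc2, another forkhead gene of mesoderm, which is 77.0% of the Foxf1 entries and 43.1% of the Foxc2 entries.

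**Figure D3:**
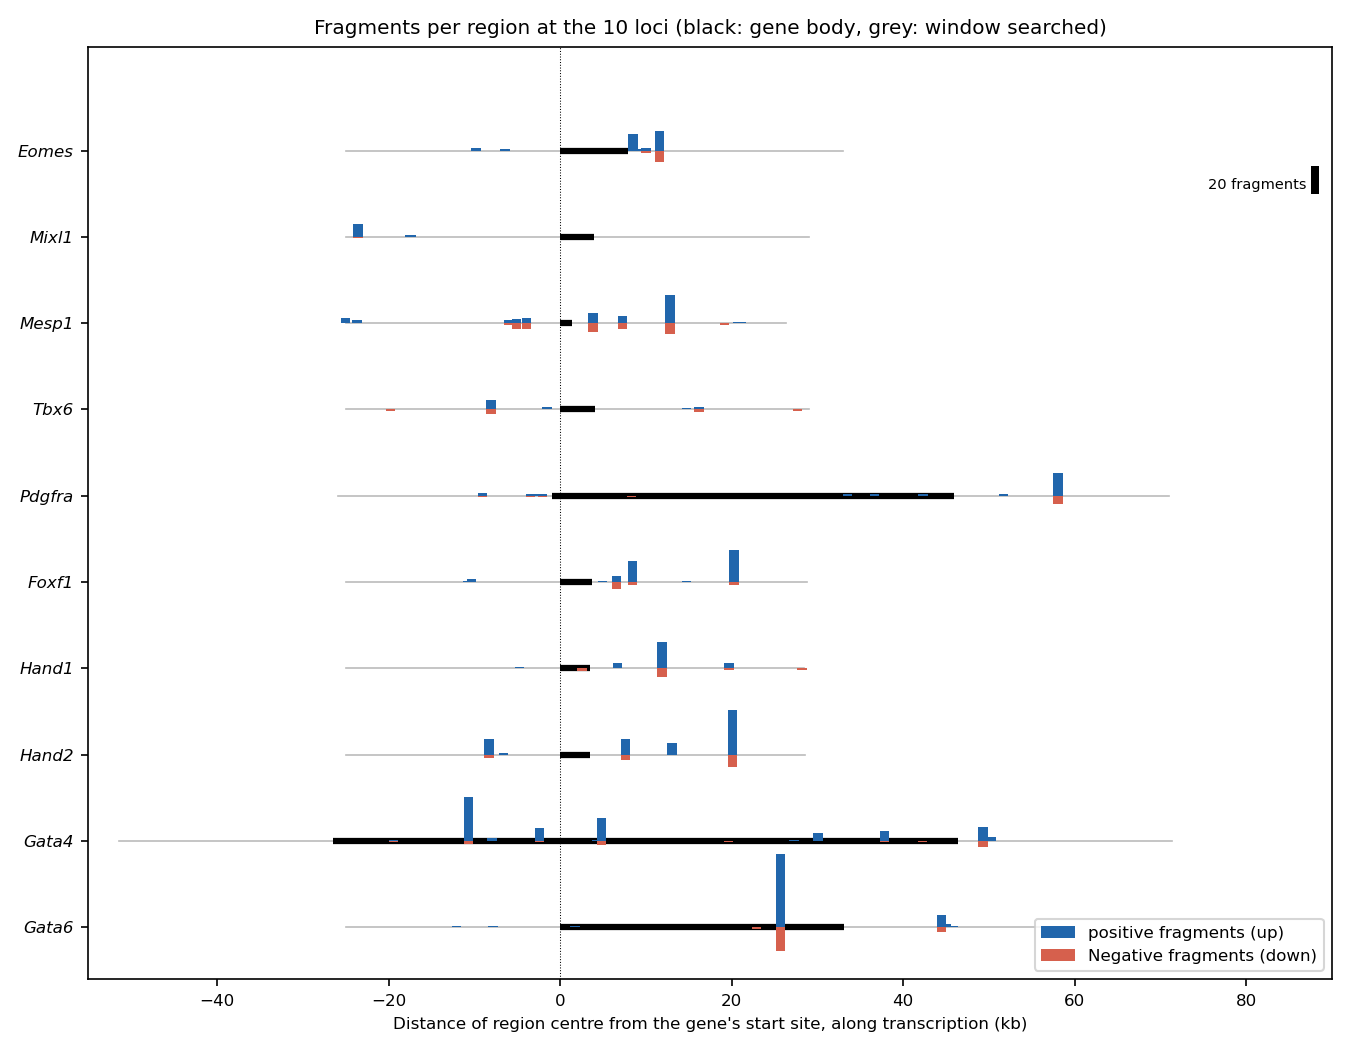
Positive (blue, up) and Negative (red, down) fragments of each of the 78 regions, placed by the distance of the region's centre from the start site along transcription in kb; black bars are gene bodies, grey lines the windows, and the black bar at the right stands for 20 fragments. At 6 of the 10 genes the tallest bar lies beyond the gene's 3′ end, and at Gata4 and Gata6 it lies inside the gene body.

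Hand1 and Hand2 each had most of their entries in a region found in replicate 1 alone. Hand1 (chr11:57828713-57832147) had 38 entries and an odds ratio of 0.716 (0.320 to 1.60). The ratio of observed to expected positives, 0.939, became 1.01 when HB of replicate 1 was left out. Its largest region, chr11:57819915-57820643, lay 11868 bp downstream and held 25 entries. The positive fragments were 3 in ES, 7 in HB, 2 in HE1, 3 in HE2 and 4 in HP, against 1 Negative in ES, 4 in HB and 1 in HP, and the odds ratio was 0.758 (0.302 to 1.90, adjusted p = 1 by the Cochran-Mantel-Haenszel test). High lists held 11 of its 25 entries, and 36.8% of all entries of the locus, against 25.1% over the series. The 5 positive Hand1 fragments of replicate 2 all came from HE1.

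Hand2 (chr8:57320983-57324517) had 80 entries in 5 regions, 74 of them from replicate 1. Its odds ratio was 1.24 (0.697 to 2.21), and the positive share per 10000 ran from 0 through a median of 1.94 to 2.89, beside a Negative share from 0 through a median of 1.57 to 3.67. All 5 regions were nearer to the start of a long non-coding RNA gene, Hdnr or Hand2os1, than to that of Hand2. The largest, chr8:57340783-57341365, 20091 bp downstream in an intron of Hdnr, held 42 entries from replicate 1. By sort its positive fragments were 3 in ES, 5 in HB, 13 in HE1, 9 in HE2 and 2 in HP, and its Negative ones were 2 in HB, 4 in HE1, 2 in HE2 and 1 in HP. That amounts to 0.991 of the expected positive count, with an odds ratio of 0.958 (0.457 to 2.01, adjusted p = 1 by the Cochran-Mantel-Haenszel test). A region 7596 bp downstream, chr8:57328360-57328798, was positive in both replicates in HE1 (1 and 1) and HP (4 and 1), with 11 positive and 4 Negative fragments in all. Within it a 96 bp fragment recurred in 6 lists of replicate 2, of which 3 were Negative. A region 13053 bp downstream, chr8:57333745-57334328, in an intron of Gm34030, had 8 positive and 0 Negative fragments, all in replicate 1 and spread over ES, HB, HE1 and HP. Its positive level was 0.234 per 10000 over all positive fragments, below the 0.290 per 10000 that the Negative count of 0 allows.

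Gata4 had the most fragments and the highest positive ratio among the tested members. Its locus (chr14:63198914-63271712) held 103 entries in 13 regions, with 87 positive and 14 Negative fragments. The positive share was above 0 in all 10 sorts, from 1.08 through a median of 2.88 to 7.68 per 10000, the last from 4 fragments in HP of replicate 2. The Negative share ran from 0 through a median of 1.18 to 3.61 and was above 0 in 6 sorts, so the ranges overlapped. The odds ratio was 2.07 (1.13 to 3.80) with an unadjusted p of 0.0196 and an adjusted p of 1 by the Cochran-Mantel-Haenszel test, and 94.4% of tested loci had a lower ratio of observed to expected positives. The positive share exceeded the Negative one in 9 of 10 sorts, and HE1 of replicate 2 was the exception.

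Within the Gata4 locus 4 regions were positive at the same stage in both replicates. The largest, chr14:63255547-63256389, lay 10697 bp upstream of the start of the curated transcripts and in an intron of longer predicted ones. Its 31 positive fragments were 3 in ES, 6 in HB, 8 in HE1, 7 in HE2 and 6 in HP of replicate 1 and 1 in HB of replicate 2. The 2 Negative fragments were in HE1 of replicate 1. The odds ratio was 4.37 (1.00 to 19.0, unadjusted p = 0.0607, adjusted p = 1 by the Cochran-Mantel-Haenszel test). That was the lowest p of the 9 tested member regions. The region 4850 bp inside the gene, chr14:63240161-63240681, was carried by replicate 2, with 19 of 21 entries. There it was positive in ES (2), HB (2), HE1 (8), HE2 (1) and HP (1) and Negative in HE1 (1) and HP (2), and in replicate 1 it was positive in HB (2). Those entries came from 10 distinct fragments, and a single 250 bp fragment accounted for 9 lists. Low lists held 12 of the 21. The region 2413 bp upstream of the start, chr14:63247230-63248138, had 9 positive fragments and 1 Negative one, with HB positive in both replicates (3 and 1), and 6 of its 10 entries were High. The region 37847 bp inside the gene, chr14:63207243-63207606, had 7 positive fragments and 1 Negative one, with HE1 positive in both (2 and 1).

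Gata6 (chromosome 18, 11052510 to 11085636) had 93 entries, and 77.4% of the entries of its 10 regions lay in 1 intronic region, chromosome 18, 11077861 to 11078604, 25722 bp from the start. This was the member region with the most entries, 72, from 50 distinct fragments. It was positive in replicate 1 in HB (8), HE1 (15), HE2 (17) and HP (8) and in replicate 2 in ES (1), HB (1) and HE1 (2). A single 314 bp fragment, chromosome 18, 11078081 to 11078394, made up 3 of the 4 entries of replicate 2. It was there in ES, HB and HE1, and it also lay in the HE1 and HP Negative lists of replicate 1. The Negative fragments of the region were 13 in HE1 and 4 in HP of replicate 1, the other Negative lists holding 0. The odds ratio was 0.766 (0.432 to 1.36, adjusted p = 1 by the Cochran-Mantel-Haenszel test). For the locus as a whole it was 0.808 (0.485 to 1.35), and the ratio of observed to expected positives, 0.958, became 1.06 without HE1 of replicate 1, which held 15 of its 21 Negative fragments. In HE2 of replicate 1, where Gata6 reached its highest positive share of 3.07 per 10000, 21 positive fragments stood beside 0 Negative ones. The count of 0 among the 8430 Negative fragments of that sort allows up to 0.0356%, which is above that positive share.

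**Figure D4:**
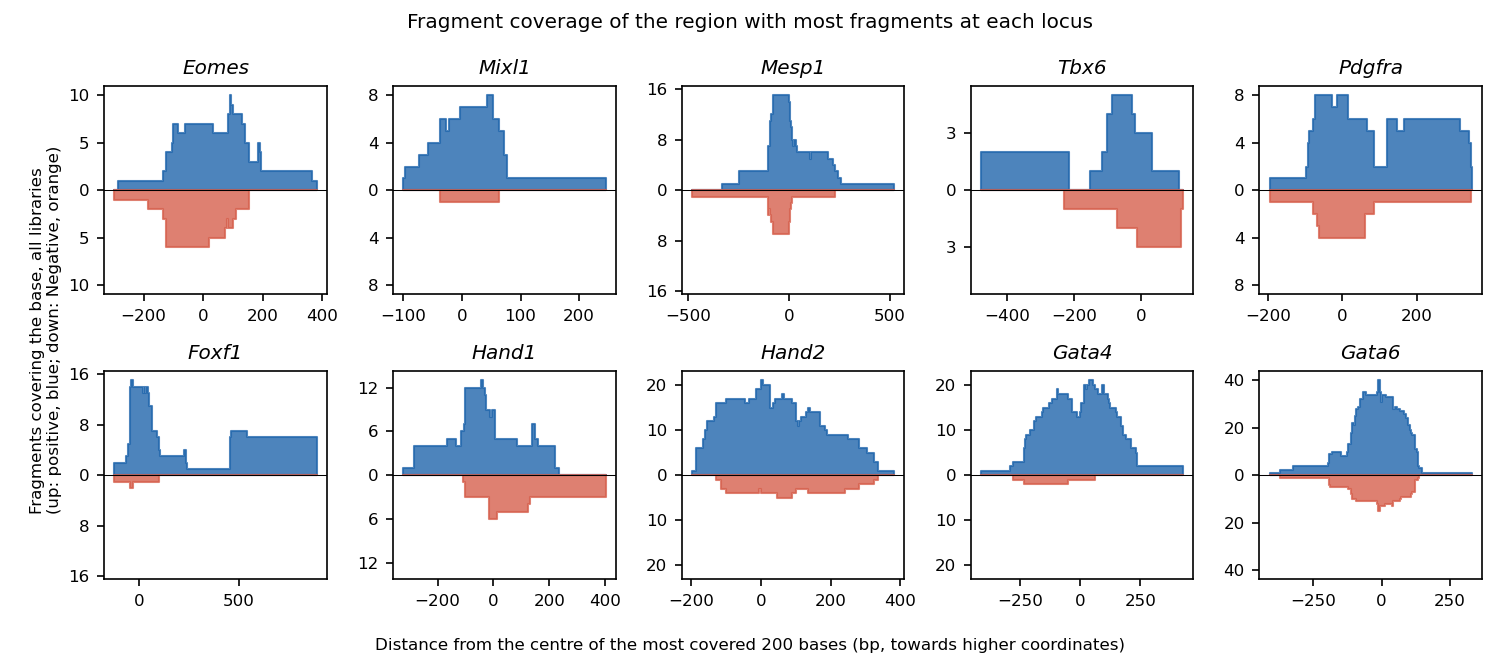
Number of listed fragments covering each base of the largest region at each locus, over all lists, upwards for positive and downwards for Negative lists, against the distance in bp from the centre of the most covered 200 bases. Negative coverage lies under the positive summit at Mesp1, Hand2 and Gata6 and is 2 fragments or fewer throughout the Foxf1 and Gata4 regions.

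Read as regions, the loci gave no call either. Of 5742 regions with at least 20 fragments, 1 had more positive fragments past the threshold (0.0174%) and 11 had fewer (0.192%). Among the 78 member regions 9 were large enough to be tested, and none of them was called or had an unadjusted p below 0.05. Their observed over expected ratios ran from 0.837 to 1.18 with a median of 0.973, against 0.999 over all tested regions. Of the 78, 37 had no Negative fragment (47.4%, against 54.3% of all regions) and 9 had no positive fragment (11.5%, against 16.0%). Regions of a single entry made up 42.3% of the members and 55.0% of all regions. No member region was centred within 1500 bp of a curated start site. The closest, at Gata4 and Tbx6, were centred 1525 bp from one. The methods set fragments within 1500 bp of a start site apart as promoter fragments, and the part of that filter in this count was not tested. Of the 78 regions, 31 were intergenic, 34 intronic, 6 in coding exons, 5 in non-coding exons and 2 in 3′ UTRs. For 40 of the 78 the nearest start site belonged to another gene than the member. These shares were not computed over all regions.

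Recurrence between the replicates was compared next. Among the member regions with any positive fragment, 18 of 69 had one in both replicates (26.1%, 95% Wilson interval 17.2 to 37.5), against 8.14% of all regions with a positive fragment. Member regions had a median of 2 entries and all regions a median of 1, so the shares were also read by size. With 2 to 9 entries the share was 30.4% (7 of 23) for members and 7.14% for all regions, and with 10 or more it was 52.4% (11 of 21) and 29.9%. For the same stage in both replicates there were 10 member regions. The same share over all regions was not computed, so this count has no background to be read against. Of the 21 member regions with 10 or more entries, 8 were found in replicate 1 alone (38.1%, against 52.3% of all regions of that size) and 1 in replicate 2 alone (4.76%, against 8.71%).

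Stages were compared by the positive fragments of a locus per 10000 positive fragments of the sort. The methods describe a filter on open chromatin of the same stage, and its part in these levels was not tested. Of 11726 gene loci tested by a moderated F test in limma with Benjamini-Hochberg adjustment, 0 were past the threshold (0%), which does not show that levels were alike, since each stage has 2 sorts. At an unadjusted p under 0.05 there were 94 loci, none of them a member. This fit had no replicate block. With the replicate as a block there were 601 loci, and the lowest member p in the moderated F test was 0.193, for Mesp1. The values that follow are those of the fit without it. The lowest unadjusted p of a member was 0.535, for Mesp1, and all 8 members tested had an adjusted p of 1.00. For Foxf1 the mean was highest in HB, 3.33 ± 1.08 per 10000 (SD, n = 2), beside 1.46 ± 0.492 in ES, 1.40 ± 0.0446 in HE1, 1.59 ± 1.83 in HE2 and 0.504 ± 0.713 in HP. Eomes also had its highest mean in HB, at 1.85 ± 0.294, with 1.58 ± 1.82 in HE1 next to it. Gata6 was lowest in ES (0.735 ± 0.529) and highest in HP (2.47 ± 0.781). Mesp1 was highest in HP with 6.39 ± 7.26, where replicate 2 gave 11.5 and replicate 1 gave 1.26, so that 1 sort decided the order. For Gata4 the means ran from 2.42 ± 0.644 in HE1 to 4.60 ± 4.36 in HP, and HB, at 3.84 ± 0.354, lay between. In these orders HB and HE2 at Foxf1 and HB and HE1 at Eomes lay closer together than the larger SD of the pair. So did HP and each of HB, HE1 and HE2 at Gata6, and ES and each of HB and HE2 there. HP lay as close to every other stage at Mesp1 and at Gata4, as did HE1 to ES and HE2 at Gata4. At Hand2 replicate 1 was at 1.96 to 2.89 in all stages, whereas replicate 2 was at 0 in ES, HB and HE2.

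**Figure D5:**
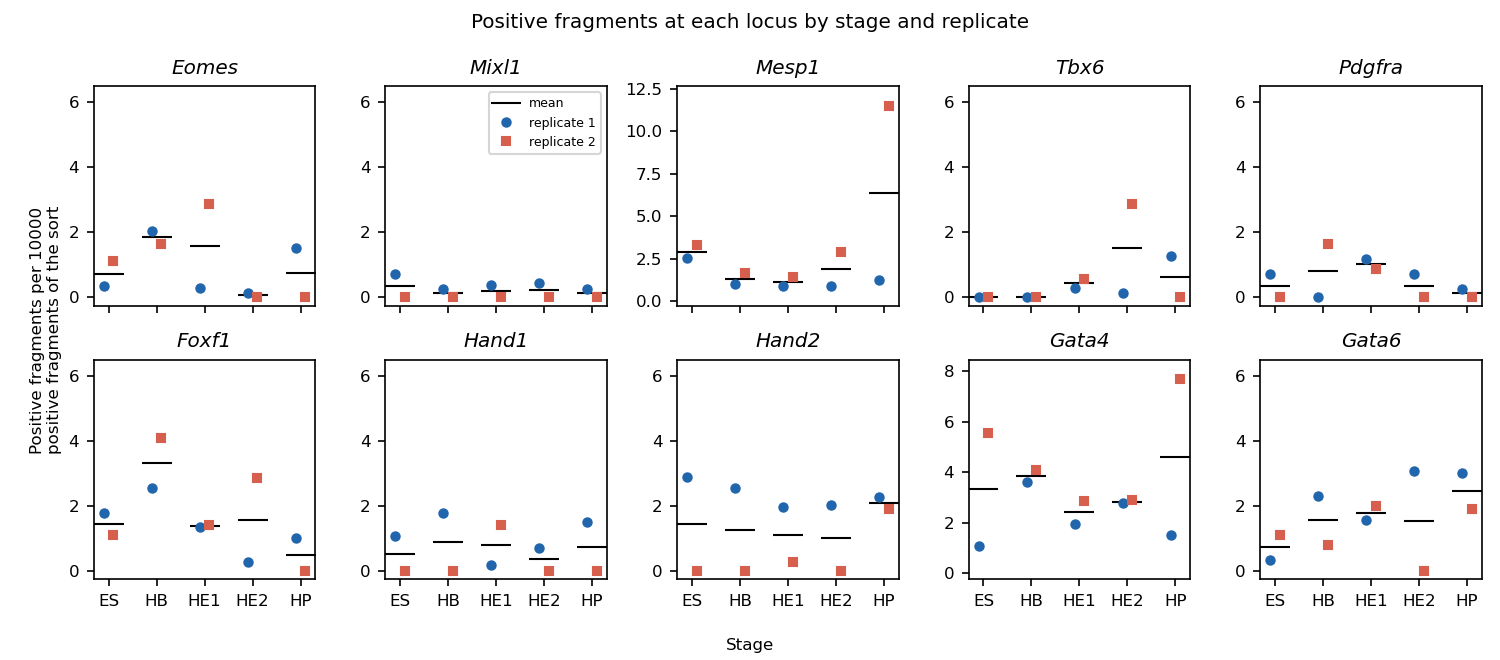
Positive fragments per 10000 positive fragments of the sort at each locus (panels, each with its own vertical axis) by stage, for replicate 1 (blue circles), replicate 2 (orange squares) and their mean (bar). The widest gap between the replicates of a stage is at Mesp1 in HP (1.26 and 11.5).

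A further 30 genes of mesoderm and heart were read in the same tests. Of these 22 had at least 20 fragments, and 0 were past the threshold in either direction, with 1 at an unadjusted p below 0.05. Their median ratio of observed to expected positives was 0.998. Tbx2, a T-box gene of the heart, had the most, with 200 positive and 62 Negative fragments and an odds ratio of 0.872 (0.649 to 1.17). Smarcd3, which encodes a chromatin remodelling subunit of the heart, followed with 87 and 23 and an odds ratio of 0.991. The Foxc2 locus had 95 and 10 and an odds ratio of 2.68 (1.37 to 5.22, adjusted p = 0.936 by the Cochran-Mantel-Haenszel test), part of it from the fragments shared with Foxf1. Cdx2, a homeobox gene of posterior mesoderm, had 81 and 25 and an odds ratio of 0.999. Between stages, 0 of the 19 of these loci with at least 20 positive fragments were past the threshold.

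The window had an effect on which regions were counted. Between 20 and 25 kb from the gene bodies there were 17 entries, and between 25 and 30 kb there were 122. Of the latter, 59 lay near Hand2, 30 near Foxf1 and 23 near Tbx6, none of which entered the values above.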

How the data were processed

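Fragments integrated at Hprt were amplified from the DNA of sorted HM-1 cells with PCR and sequenced as read pairs. Per the methods and processing notes, the authors used Trim Galore for trimming and Bowtie2 for alignment to mm10, kept well-mapped proper pairs and reduced repeated fragments to 1; versions are not given in the sources used here. The values they deposited are other than counts: 40 lists of coordinates, without read counts, scores or molecular identifiers, so a fragment counts once in a list however many cells carried it. Fragments were 66 to 599 bp long. Further filters are described in the methods, on a background library, open chromatin and distance from promoters, and which were applied to the lists is not stated. The filter on open chromatin includes a peak of the same stage. Under it, a fragment missing at a stage may have lacked open chromatin there, which was not tested.

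Here fragments were placed by their centre with RefSeq GRCm38.p6, the mm10 assembly. Start sites were those of curated transcripts, and exons and introns those of all RefSeq transcripts. All 10 gene symbols matched. Positive against Negative was tested with the Cochran-Mantel-Haenszel test with continuity correction over 10 sorts, for gene loci and for regions with at least 20 fragments, and stages with limma 3.58.1 (R 4.3.3) on log2 of positive fragments per 10000 with a prior of 0.5 fragments, for loci with at least 20 positive fragments. P-values were adjusted by the Benjamini-Hochberg method over all features tested, with a threshold of 0.05. Intervals of shares are Wilson intervals at 95%, and limits for a count of 0 rest on 3 counts. Intervals of odds ratios and p-values of the Cochran-Mantel-Haenszel test are computed from fragment counts within the sorts. All of these treat fragments as independent and cover counting error only, and PCR without identifiers does not give independent molecules. Both tests were tested on simulated data. The Cochran-Mantel-Haenszel test recovered most loci only at the strongest decrease set, and the stage test only at the largest change set. The simulated counts were drawn independently, without recurring fragments or an effect of the replicate on a locus. Recovery in the lists can therefore be lower. So a missing call does not show that shares or levels were alike. Numpy 2.4.6, pandas 2.3.3, scipy 1.17.1 and pysam 0.24.0 were used.

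The labels do not state whether the replicate numbers pair the sorts, and the main stage fit did not use the replicate as a block. The deviations of replicate 1 from the stage mean correlated between all 10 pairs of stages over 11726 loci, with r from 0.323 to 0.485. Whether this comes from the unequal depth of the replicates was not tested. A fit with the replicate as a block is among the alternatives. Each locus is described by its region with the most entries over all lists, and by up to 4 regions positive at the same stage in both replicates. The members, gene lists, motifs and tests were chosen with earlier results of these data known. Some further regions and recurring fragments were named after their values were seen.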

Additional observations from a re-analysis of the deposited data

Results flagged for a closer look

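Several differences between positive and Negative shares ran in one direction in both sorts of a stage and in the opposite direction in both sorts of another. None of these differences between stages was tested, and 2 sorts against 2 are too few for an exact permutation test to reach the threshold of 0.05. For the 10 loci together the difference was above 0 in ES and HB and below 0 in HE1. The mean gap was 0.137 percentage points between ES and HE1 and 0.109 between HB and HE1. At Eomes, ES lay above 0 and HP below it, 0.0183 apart. At Tbx6, HE2 lay above HP by 0.0333, and at Hand1, HE1 lay above HP by 0.0225. At Hand2, HP lay above HE2 by 0.0317. These gaps rest on few fragments. No Negative fragment was found at Eomes in ES, at Tbx6 in HE2 or at Hand1 in HE1. Over both sorts, these counts of 0 allow up to 2.28, 2.69 and 0.680 per 10000. The positive shares of replicates 1 and 2 there were 0.361 and 1.11, 0.146 and 2.88, and 0.196 and 1.44 per 10000. The ES share of Eomes comes from 1 positive fragment in each replicate, and the HE2 share of Tbx6 also comes from 1 in each. The ES Negative list of replicate 2 held 1 fragment at the 10 loci, and the HE1 Negative list of replicate 2 held 8 of its 2773.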

How the results depend on the processing

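No member that could be tested passed the threshold under any of the 21 alternatives run for the gene loci. Of the 8 members tested above, Mesp1 and Gata4 alone could be tested without replicate 1, 5 could be with a minimum of 50 fragments, and Pdgfra could not be with the 10 kb window or without HE1 replicate 1. No locus passed in any of the 17 run for the stages, where the fit with the replicate block gave 0 of 11726 loci past the threshold and 601 instead of 94 at an unadjusted p under 0.05. The replicate block changed no call. The count of all gene loci past the threshold, 14, became 27 with a window of 50 kb, 4 with a minimum of 50 fragments, 31 with no replicate block and the stages as strata, 0 with near-identical fragments collapsed (288 at an unadjusted p under 0.05), 25 without fragments shared by the Negative and positive lists and 5 with Medium or High alone as positive. For regions the count of 12 became 5, 30, 29, 26 and 3 under the minimum of 50, no replicate block, collapsing, no shared fragments, and Medium or High. Leaving out a sort or a replicate gave 4 to 19 gene loci and 5 to 19 regions. Without replicate 2 it was 4 loci and 5 regions, without HB replicate 2 it was 6 and 7, without HE1 replicate 2 it was 7 and 5, without ES replicate 2 it was 11 and 7, and without HP replicate 2 it was 17 and 19. The cause of these shifts was not tested. The share of the 10 loci, positive minus Negative, moved by less than 1 SD in all 18 alternatives, with leave-out values from -0.0148 to 0.0134 percentage points. The direction of a member turned in 5 cases: Foxf1 to 0.991 with a 10 kb window, Eomes to 1.01 with no replicate block and to 1.01 without HE1 replicate 1, Hand1 to 1.01 without HB replicate 1, and Gata6 to 1.06 without HE1 replicate 1. Over the settings that left out sorts, the ratio ran from 0.887 to 1.01 at Eomes, from 0.906 to 1.01 at Hand1 and from 0.901 to 1.06 at Gata6. Gata4 kept a ratio above 1 in its 21 alternatives, from 1.09 to 1.21 over those that left out sorts. The number of fragments limits all of these, with 12 to 103 entries per locus.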
